A study of Mus musculus with 2 samples.

Results

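The immediate early AP-1, Egr1, Myc and Ier3 genes were examined in heart RNA of mice with a cardiomyocyte-specific deletion of Med1, a subunit of the Mediator complex. The members were chosen by symbol and are 10 genes of 22882 in the files, namely 4 Fos family genes (Fos, Fosb, Fosl1 and Fosl2), 3 Jun family genes (Jun, Junb and Jund), Egr1, Myc and Ier3. Each symbol stands on 1 row of each file. RNA from hearts of 5 Med1fl/fl mice (control) was pooled into 1 library, and that of 5 csMed1-/- mice into another 1. The mice were 23 days old, untreated, of mixed sex and on a C57BL6/J background. Both groups carried the floxed Med1 allele. In csMed1-/- mice Cre was driven by the α-myosin heavy chain promoter, which is active in cardiomyocytes, so the other cells of the heart kept Med1. Med1 itself had 3.38 FPKM in control heart against 0.412 FPKM in csMed1-/- heart (ratio 0.122). FPKM counts fragments per kilobase of transcript, scaled to the size of the library, and is a level per length, so that levels of different genes can be set side by side. Each genotype has a single library without replicates, so no spread between hearts can be given, and no test was made. In such whole-heart RNA, fewer cells of a type and less RNA per cell cannot be told apart. The study describes csMed1-/- hearts of about this age as enlarged, flaccid and poorly contracting. Loss of Med1, the presence of Cre and heart failure therefore cannot be told apart in these ratios.

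Immediate early genes are transcribed within minutes of a stimulus, without the need for new protein. AP-1 is a dimer of a Fos and a Jun protein, or of Jun proteins alone, held together by a leucine zipper, and it binds DNA at the sequence TGANTCA. Egr1 is a zinc finger factor of GC-rich promoters, Myc pairs with Max on the E-box CACGTG, and Ier3 is a small stress-inducible protein that acts on cell survival. In heart, load, ischaemia and adrenergic stimulation are known to induce these genes. Their mRNAs are short-lived, in part through AU-rich elements of the 3′ untranslated region.

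Sequence of the 250 bases before the transcription start was read for 7 of the 10 members from RefSeq (GRCm38.p6). Those of Egr1, Myc and Fosl1 were not analysed here. The stretches of Junb and Ier3 are shown because these genes had the highest ratios among members at 1 FPKM or more, that of Fos as the namesake of its family, and that of Jun because its level was nearly equal in both libraries. They lie at chr8:84978749-84978998 on the minus strand (Junb), chr17:35821463-35821712 on the plus strand (Ier3), chr12:85473640-85473889 on the plus strand (Fos) and chr4:95052223-95052472 on the minus strand (Jun). Each reads 5′ to 3′ towards the gene, and capitals mark every match to any of 9 motifs that were searched on both strands.
Junb: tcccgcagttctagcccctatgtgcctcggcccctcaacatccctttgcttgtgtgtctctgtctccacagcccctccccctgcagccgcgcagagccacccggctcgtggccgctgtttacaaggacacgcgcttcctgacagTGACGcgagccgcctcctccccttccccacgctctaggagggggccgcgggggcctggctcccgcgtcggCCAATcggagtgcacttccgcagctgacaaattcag
Ier3: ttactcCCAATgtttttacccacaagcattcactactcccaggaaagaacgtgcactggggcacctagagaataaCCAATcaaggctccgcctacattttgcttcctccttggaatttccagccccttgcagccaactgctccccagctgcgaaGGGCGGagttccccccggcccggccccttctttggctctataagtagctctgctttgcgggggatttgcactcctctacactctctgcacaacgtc
Fos: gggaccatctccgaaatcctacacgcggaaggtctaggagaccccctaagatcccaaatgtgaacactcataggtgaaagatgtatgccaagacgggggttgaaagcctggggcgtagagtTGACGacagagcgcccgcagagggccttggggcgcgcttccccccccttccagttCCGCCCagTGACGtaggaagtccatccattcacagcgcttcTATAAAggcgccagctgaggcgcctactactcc
Jun: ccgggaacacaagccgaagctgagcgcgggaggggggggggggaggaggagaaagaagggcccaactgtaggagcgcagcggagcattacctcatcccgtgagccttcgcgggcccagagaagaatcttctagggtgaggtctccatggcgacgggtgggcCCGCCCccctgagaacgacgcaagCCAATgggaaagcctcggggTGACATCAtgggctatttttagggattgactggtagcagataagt

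The motif TGACG, the core of cyclic AMP response elements, was found in 3 of the 7 members, at 106 bases before the start in Junb, at 129 and 66 bases in Fos and at 60 bases in Fosb. It stands in 17.8% of 32851 mouse promoter stretches of the same length. Jun had no TGACG but a single match to TGACNTCA (TGACATCA, 45 bases before the start), a motif held by 7.49% of all stretches. When its N is G, this motif overlaps TGACG. The Egr motif GCGNGGGCG was found in Fosb and Fosl2 (4.70% of all stretches) and overlapped GGGCGG in both. CCAAT stood in Jun, Junb and Ier3 (33.8% of all), GGGCGG in 5 of the 7 (32.7%) and TATAAA in Fos alone (7.59%). None of the 7 stretches held TGANTCA (6.75% of all), CACGTG (6.02%) or a CArG box (1.47%). Sequence more than 250 bases before the start was not searched, so such sites may lie farther upstream. These are matches of letters and no measurement of binding. For Jund the RefSeq start lies far upstream of that of GENCODE, and for Fosl2 it lies 671 bases downstream, inside the GENCODE gene, so these stretches may not be the ones in use in heart.

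Each of the 10 members had more FPKM in csMed1-/- than in control heart, by widely different amounts. Junb was 3.98-fold, Ier3 3.62-fold, Myc 2.84-fold, Fosl2 2.46-fold and Fos 2.21-fold higher. Jund (1.70-fold), Egr1 (1.45-fold) and Jun (1.02-fold) stayed within 2-fold. Fosb and Fosl1 were below 1 FPKM in both libraries, at ratios of 3.55 and 28.1. The filter used for counts required a value above 0 in each library and a higher value of no less than 1 FPKM, which 8 of the 10 members met. Of these, 5 members were higher by more than 2-fold against 13.6% of 10489 genes. None of the 8 was lower by more than 2-fold, against 18.0% of all genes. All 8 were higher by any amount, as were 46.8% of all genes. The median log2 ratio of the 8 was 1.22 and that of all genes was -0.07, with quartiles of -0.72 and 0.55.

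**Figure D1:**
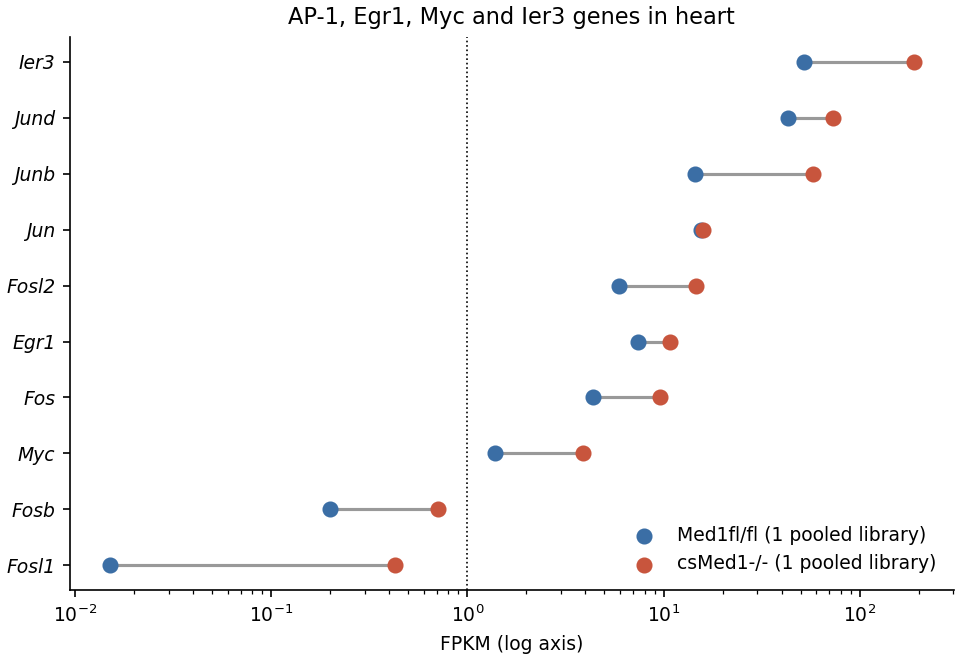
FPKM of the 10 genes (log axis) in the control library (blue) and the csMed1-/- library (red), ordered by the csMed1-/- level. The dotted line marks 1 FPKM, below which Fosb and Fosl1 lie in both libraries. Jun is the gene whose points nearly coincide, at 15.5 and 15.8 FPKM.

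In the Fos family, whose proteins need a Jun partner to bind DNA, Fosl2 was the most abundant gene in both libraries. Fosl2 (chromosome 5, 32135801 to 32157842, plus strand), which encodes Fra-2, had 5.96 FPKM in control heart against 14.7 FPKM in csMed1-/- heart. Fos (chromosome 12, 85473890 to 85477273, plus strand) had 4.37 and 9.64 FPKM. Its log2 ratio of 1.14 became 0.99 once a pseudocount of 1 FPKM was added, so this gene lies at the edge of 2-fold. Fosb (chromosome 7, 19302696 to 19310051, minus strand), the close relative of Fos, had 0.199 and 0.706 FPKM, a log2 ratio of 1.83 that a pseudocount of 1 FPKM took to 0.51. Fosl1 (chromosome 19, 5447547 to 5455946, plus strand), which encodes Fra-1, had 0.0151 and 0.425 FPKM.

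The large ratio of Fosl1 rests on a control value near the bottom of the scale. Multiplied by transcript length, which makes values of different genes comparable as fragments, it was lower than all but 5.18% of 6292 genes with a single annotated transcript and a control value above 0. In the csMed1-/- library 31.5% of 6372 such genes were lower than Fosl1. Its log2 ratio was 4.82, and adding 0.1 FPKM to both values took it to 2.19, and adding 1 FPKM to 0.49. Exons of Fosl1 also overlap those of Ccdc85b on the other strand, which had 8.26 FPKM in control heart against 7.36 FPKM in csMed1-/- heart. Libraries were directional, but whether the counting used strand is not stated.

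Summed over its 4 genes, the Fos family had 10.5 FPKM in control heart against 25.4 FPKM in csMed1-/- heart, 2.41-fold more. The shares of its genes were close in both libraries. Fosl2 made up 56.5% of the sum in control and 57.6% in csMed1-/- heart, and Fos 41.5% and 37.9%. Fosb and Fosl1 together had the remaining few percent, with Fosl1 at 0.143% and 1.67%.

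The Jun family, which supplies the partner of every AP-1 dimer, held both the member with the highest ratio past the filter, Junb, and the one with the lowest, Jun. Junb (chromosome 8, 84974484 to 84978718, minus strand), whose protein is a weaker activator than Jun on many promoters, had 14.5 FPKM in control heart against 57.7 FPKM in csMed1-/- heart. Jun (chromosome 4, 95049034 to 95052222, minus strand) had 15.5 and 15.8 FPKM. Jund (chromosome 8, 70698949 to 70700616, plus strand), the family member that most resting cells express, had 43.1 and 73.3 FPKM. Junb and Jun were thus at almost the same level in control heart, where Junb had 0.936 times the FPKM of Jun, and Junb had 3.65 times the FPKM of Jun in csMed1-/- heart. The log2 ratio of Jun stayed between 0.02 and 0.10 under each scaling of the libraries, and that of Junb between 1.98 and 2.06. The single exon of Jund overlaps that of Gm11175 on the other strand, a gene not analysed here. The Junb and Jun genes overlap Prdx2 and Junos on the other strand, but no exon of their coding transcripts does. Prdx2 had 1042 FPKM in control heart against 890 FPKM in csMed1-/- heart.

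Summed over its 3 genes, the Jun family had 73.1 FPKM in control heart against 146.8 FPKM in csMed1-/- heart, 2.01-fold more. The make-up of this sum differed more between the libraries than that of the Fos family. Junb took 19.8% of the family sum in control and 39.3% in csMed1-/- heart. Jun had 21.2% and 10.8% of the sum and Jund 59.0% and 49.9%, although neither had a lower FPKM in csMed1-/- heart. The Jun family sum was 6.93 times the Fos family sum in control and 5.77 times in csMed1-/- heart.

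**Figure D2:**
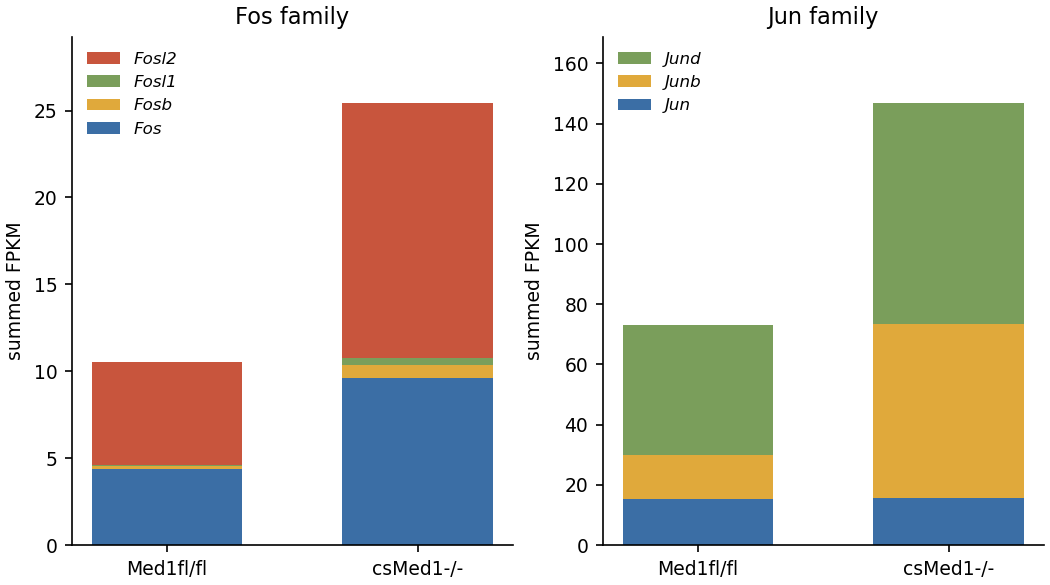
Summed FPKM of the Fos family (left) and the Jun family (right) in each pooled library, with 1 coloured segment per gene. The Junb segment is 19.8% and 39.3% of the Jun family sum, the Jun segment is equally high in both bars, and the panels have different axes.

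Egr1, Myc and Ier3, which belong to no AP-1 family, were each higher in csMed1-/- heart, by 1.45-fold, 2.84-fold and 3.62-fold. Egr1 (chromosome 18, 34859823 to 34864984, plus strand) had 7.42 FPKM in control heart against 10.8 FPKM in csMed1-/- heart. Myc (chromosome 15, 61985391 to 61990374, plus strand) had 1.38 and 3.91 FPKM. Ier3 (chromosome 17, 35821684 to 35822923, plus strand) had 52.0 and 188.1 FPKM. Ier3 was the most abundant member in both libraries and had the largest difference in FPKM, at 136.1. Myc was the lowest of the 8 members past the filter, and a pseudocount of 1 FPKM took its log2 ratio from 1.51 to 1.05.

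By level, the members ran from Ier3 through Jund, Jun, Junb, Egr1, Fosl2, Fos, Myc and Fosb to Fosl1 in control heart. In csMed1-/- heart Junb stood above Jun, and Fosl2 above Egr1, while the other genes kept their order. Whether neighbours in either order differ beyond the variation between hearts cannot be said from single libraries.

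Set among the 10489 genes past the filter, Junb was the highest-ranked member, with 4.36% of genes at a higher ratio. For Ier3 this share was 4.98%, for Myc 7.14%, for Fosl2 9.33% and for Fos 11.2%. Jund had 18.6% of genes above it, Egr1 25.3% and Jun 45.5%. The members thus lay in the upper part of the distribution with Jun close to its middle.

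**Figure D3:**
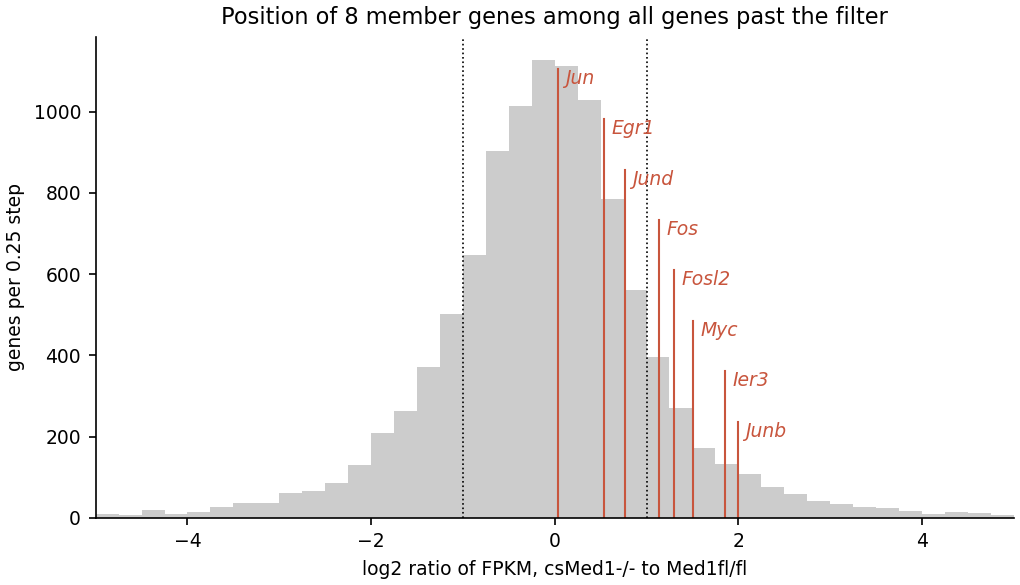
Grey bars give the number of genes in each step of 0.25 in log2 ratio (csMed1-/- to control) among 10489 genes, of which 57 lie beyond 5 on either side and are not drawn. Red lines mark the 8 members past the filter (their heights carry no value) and dotted lines mark 2-fold. Jun stands near the centre, and Junb and Ier3 stand farthest to the right.

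The members have few exons, a feature that the choice by symbol did not use. In GENCODE M21 (GRCm38) their coding transcripts had 1 to 4 exons with a median of 2.5, against a median of 9 over 9470 matched genes past the filter. Jun, Junb and Jund had a single exon, as 3.48% of all genes did. The median gene length was 4609.5 bases for the members and 21060.5 bases for all genes, and Fosl2, at 22042 bases, was the one member above the latter. Among genes with 1 exon 27.3% were higher by more than 2-fold, among those with 2 to 4 exons 16.8%, and among those with 5 or more exons 12.1%. The share also moved with level, from 11.9% of genes at 1 to 10 FPKM in their higher library to 13.9% at 10 to 100 FPKM and 19.3% at 100 FPKM or more. The part of exon number and level in the ratios of the members was not tested.

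The pentamer ATTTA, the core of AU-rich elements that shorten the life of an mRNA, was present in the 3′ untranslated region of each member. It is common, with a median of 1 copy over 9058 genes and of 2 copies over the members. Ier3 had 5 copies in 613 bases, 8.16 per kilobase, a density that 1.49% of 9058 genes exceeded. Fos had 4 copies in 815 bases (4.91 per kilobase), Myc 2 in 442 bases (4.52), Junb 2 in 485 bases (4.12) and Jun 4 in 1233 bases (3.24). Jund (1.88 per kilobase), Fosl2 (1.72), Egr1 (1.64) and Fosl1 (1.57) lay lower, and from 31.2% to 37.2% of genes exceeded them. Fosb was the sparsest, with 1 copy in 2145 bases. Pooled over all members the density was 2.35 copies per kilobase, against 1.58 over all genes. The densest 30 bases of Ier3 and Fos are shown with ATTTA in capitals, from bases 166 to 195 and 632 to 661 of the 3′ untranslated region, to let the clustered copies be seen.
Ier3: ctccgtgtctaattaatATTTAtgtATTTA
Fos: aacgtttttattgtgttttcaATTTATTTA

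Of 46 other immediate early genes, 39 passed the filter. Among them 17 were higher and 1 was lower by more than 2-fold, against 13.6% and 18.0% of all genes. Their median log2 ratio was 0.79, and 31 of the 39 were higher by any amount, against 46.8% of all genes. Arc, among the 17, was below 1 FPKM in control. With 1 FPKM required in both libraries 16 genes were higher by more than 2-fold and the median was 0.57. Atf3, a stress-inducible relative of the Fos and Jun proteins, had the highest ratio, with 2.15 FPKM in control heart against 26.2 FPKM in csMed1-/- heart. Maff, a small Maf protein of the same leucine zipper class, had 4.96 and 59.2 FPKM. Ppp1r15a, which restores protein synthesis after stress, had 13.7 and 90.1 FPKM. These ratios, from 6.56 for Ppp1r15a to 12.2 for Atf3, were above that of any member past the filter. The study itself lists Atf3 and Ppp1r15a as up-regulated in the same hearts, so their direction is no independent evidence. The lowest were Gadd45a (4.35 and 1.41 FPKM), Mcl1 (30.1 and 18.0 FPKM) and Klf2 (87.1 and 65.3 FPKM).

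Not all immediate early genes were apart in the 2 libraries, as Jun was not. Ier2 had 22.7 and 32.5 FPKM, a ratio of 1.43 close to that of Egr1. Klf4 had 5.70 and 5.91 FPKM, and Dusp1, a phosphatase of MAP kinases that is induced with Fos and Jun, had 111.3 and 114.6 FPKM. Cebpd, by contrast, had 42.0 and 174.3 FPKM, a ratio of 4.16 next to that of Junb. Klf4, Dusp1 and Cebpd were singled out after their values were seen.

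**Figure D4:**
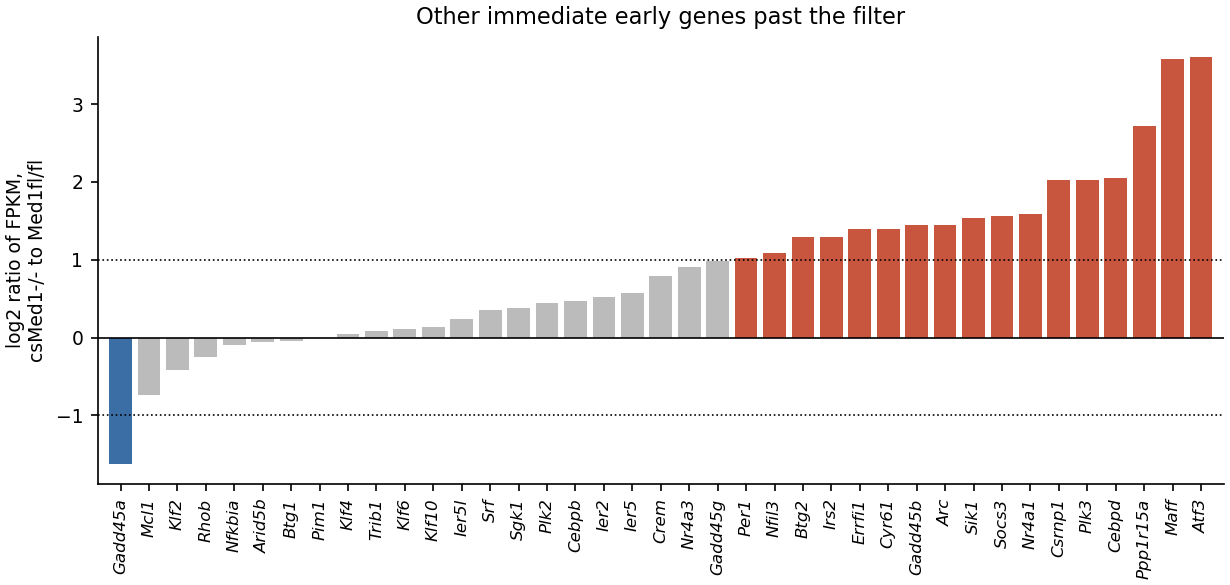
Log2 ratio of csMed1-/- to control FPKM for the 39 other immediate early genes past the filter, in order. Red bars are the 17 genes higher and the blue bar is the gene lower by more than 2-fold (dotted lines), from Gadd45a at the left to Atf3 at the right.

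Proteins that pair with the members showed a mixed picture. Of 17 AP-1 dimer partners and relatives 14 passed the filter (median log2 ratio 0.63). By more than 2-fold 4 were higher and 2 lower, against 13.6% and 18.0% of all genes. The higher ones were Atf3 and Maff, Creb5 (0.189 and 1.48 FPKM) and Mafk (16.3 and 71.5 FPKM). Creb5 was below 1 FPKM in control, and with 1 FPKM required in both libraries 3 genes were higher. Atf7, a relative of Atf2, was among the lower ones (10.5 and 5.16 FPKM), and Batf2 had 1.13 and 0.885 FPKM.

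In the Myc-Max network, 2 of 11 genes past the filter were higher and 0 lower by more than 2-fold, against 13.6% and 18.0% of all genes. The median log2 ratio of the network was 0.24. Max, the partner that Myc needs to bind DNA, had 27.6 FPKM in control heart against 23.5 FPKM in csMed1-/- heart, many times the level of Myc in both. Mycl1, the L-Myc gene, had 0.109 and 2.40 FPKM, so it passed the filter through the csMed1-/- library alone. With 1 FPKM required in both libraries 1 gene of the network was higher by more than 2-fold. Mxd3, which competes with Myc for Max, had 4.51 and 12.4 FPKM, and Mxd4, another such competitor, 64.4 and 95.0 FPKM. Mxi1 (6.56 and 6.86 FPKM) and Zbtb17 (15.7 and 15.2 FPKM), the Miz-1 partner of Myc, lay close to a ratio of 1. Mycn, below the filter, had 0.784 and 0.193 FPKM, the opposite direction to Myc.

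The other Egr genes were hardly detected, with Egr2 at 0.107 and 0.466 FPKM and Egr3 at 0.172 and 0.360 FPKM. Egr4 was listed at 0 in control and at 0.0172 FPKM in csMed1-/- heart. Of the list of 6 Egr family and Nab corepressor genes, Nab2 (4.88 and 7.54 FPKM), which binds and restrains Egr proteins, and Wt1 (1.19 and 1.86 FPKM) passed the filter, and both lay within 2-fold. All 4 other listed genes with an Ier name passed and lay within 2-fold. Of all genes 13.6% were higher and 18.0% lower by more than 2-fold. The ratios of the 4 were 1.08 for Ier3ip1, 1.18 for Ier5l, 1.43 for Ier2 and 1.49 for Ier5. That of Ier3 was 3.62.

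The list of MAP kinases and serum response factors had a median log2 ratio of 0.15 over 23 of 26 genes. By more than 2-fold 2 were higher and 3 lower, against 13.6% and 18.0% of all genes, so neither count stood above the background. With 1 FPKM required in both libraries 1 gene was higher. Rps6ka3, Map2k6 and Mapk10 reached 1 FPKM in only 1 library. Higher were the kinase genes Rps6ka3 (0.777 and 1.78 FPKM) and Rps6ka4 (18.1 and 37.2 FPKM), the latter encoding the histone kinase Msk2. Mapk7, the ERK5 gene, had 5.88 and 9.82 FPKM. Lower were Map2k6 (1.31 and 0.0713 FPKM), a kinase of the p38 branch, Mapk10 (2.46 and 0.516 FPKM), the gene of the Jun kinase JNK3, and Myocd (9.24 and 4.53 FPKM), a cardiac cofactor of Srf. Srf itself had 58.0 and 74.3 FPKM.

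Of the 19 inhibitors that end MAP kinase signalling or destroy short-lived mRNAs, 17 passed the filter (median log2 ratio 0.28). By more than 2-fold 3 were higher and 2 lower, against 13.6% and 18.0% of all genes. The higher were Dusp2 (0.440 and 1.69 FPKM), Errfi1 (6.12 and 16.1 FPKM), an inhibitor of the EGF receptor, and Spry1 (23.2 and 54.4 FPKM). Dusp2 was below 1 FPKM in control, and with 1 FPKM required in both libraries 2 genes were higher. Lower were Dusp7 (39.0 and 6.63 FPKM), a phosphatase of ERK, and Spred2 (10.5 and 4.46 FPKM). Spry2 had 13.2 and 7.63 FPKM.

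Markers of the cells in the heart also differed between the libraries. The background for all marker counts is 13.6% of all genes higher and 18.0% lower by more than 2-fold. Cardiomyocyte markers past the filter ran from Ttn at 8.22 FPKM to Myl2 at 20467 FPKM in control, and of these 8 genes 3 were lower and 0 higher by more than 2-fold (median log2 ratio -0.64). Tnni3 (10283 and 1537 FPKM), Myl2 (20467 and 6571 FPKM) and Tnnt2 (2280 and 1119 FPKM) had the lowest ratios, and Ttn (0.699), Tnnc1 (1.25) and Actn2 (1.47) the highest. Actc1 was listed at 0 in control and at 9189 FPKM in csMed1-/- heart, so a 0 in these files can fall on a gene that every heart uses. The summed level of the 9 markers in the files, Actc1 included, was 57721 FPKM in the control and 37389 FPKM in the csMed1-/- library. Actc1 adds 0 to the control sum and 9189 FPKM to the csMed1-/- sum, so these sums do not compare like with like. Myh6 was not analysed here. No member was listed at 0 in either library.

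Of 9 fibroblast markers past the filter 4 were higher and 2 lower by more than 2-fold (median log2 ratio 0.66), from Dpt (0.317), Lum (0.463) and Dcn (0.847) to Col1a2 (3.29), Col1a1 (3.87) and Postn (17.5), each given as a ratio. The summed level of all 10 listed fibroblast markers, past the filter or not, was 545 FPKM in control heart against 1207 FPKM in csMed1-/- heart. For macrophage and leukocyte markers these counts were 3 higher and 0 lower of 10 (median log2 ratio 0.49). All 14 listed genes of this kind summed to 418 and 497 FPKM. S100a8 (3.36), S100a9 (2.51) and Cd14 (2.45) had the highest and Emr1 (0.532), Lyz2 (0.587) and Csf1r (0.879) the lowest ratios, and the pan-leukocyte gene Ptprc was at 0.0403 and 0.0147 FPKM. Of 10 endothelial markers 1 was higher (Cldn5, 8.66) and 3 were lower (Tek, 0.268; Kdr, 0.322; Emcn, 0.451), with Egfl7 at 1.36 and Esam at 1.48 and a median log2 ratio of -0.37. The endothelial sums were 836 and 1239 FPKM, and 779 and 749 FPKM without Cldn5. Of 7 smooth muscle and pericyte markers 3 were higher (Cspg4, 2.21; Tagln, 3.77; Cnn1, 144) and 1 was lower (Myh11, 0.488), with Acta2 at 0.541 and Pdgfrb at 0.925 and a median log2 ratio of 0.66. Their sums were 679 and 1118 FPKM, and 675 and 496 FPKM without Cnn1. The part of cell make-up in the ratios of the members was not tested.

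**Figure D5:**
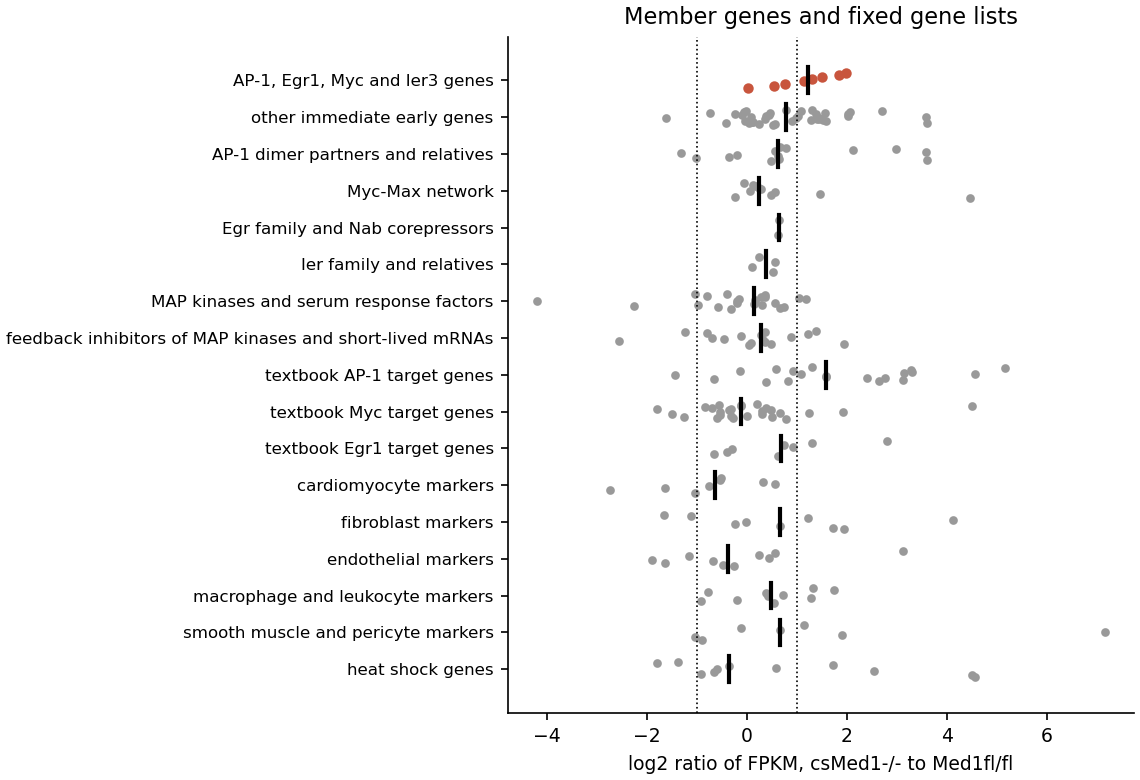
Log2 ratio of csMed1-/- to control FPKM for each gene past the filter (grey points) in the fixed lists, with the members in red at the top. Black bars are medians and dotted lines mark 2-fold. The median of the members, 1.22, lies above those of the lists except the AP-1 target genes.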

How the data were processed

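Heart RNA of 5 Med1fl/fl mice and 5 csMed1-/- mice was pooled by genotype and sequenced as 1 directional, oligo-dT selected library each with single-end reads. Alignment to mm10 by the authors used TopHat (2.0.8b), and the deposited FPKM values of annotated genes came from Cufflinks and cuffdiff (2.1.1). The submitters' processing notes also list STAR (2.4.0h), Bowtie2 and DESeq2, with no role. The scaling between libraries is not given in the sources used here. The files hold no counts, so depth and the precision of a value are unknown.

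Values were used as deposited, and the 23424 rows were summed by symbol. Ratios are plain, csMed1-/- over Med1fl/fl, without a pseudocount. Genes were kept (10489) if their lower value was above 0 and their higher value no less than 1 FPKM, and 2-fold was the threshold of a call. Medians and counts over lists are descriptions. Members and lists were chosen with earlier results of these data known. Named were all members, Med1, and the 3 highest and 3 lowest ratios of each list; others named are single genes chosen after their values were seen, among them those below the filter. A gene that this rule names is not reported here. Gene positions, exons and 3′ untranslated regions came from GENCODE M21 (GRCm38, the assembly of mm10), with the transcript of the longest coding sequence, and promoters from RefSeq. The computation was tested on simulated data. Alternatives were pseudocounts of 0.1 and 1 FPKM, 3 other filters, centring on the median, scaling to the 75th percentile or without the 100 highest genes, the highest row per symbol, and thresholds of 1.5-fold and 4-fold. Python 3.11.15, numpy 2.4.6 and pandas 2.3.3 were used.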

Additional observations from a re-analysis of the deposited data

How the results depend on the processing

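Of 84 recomputed member ratios, 81 moved by less than 1.5-fold, and none changed sign. The 3 others were the genes below 1 FPKM, Fosb at a log2 ratio of 0.51 with a pseudocount of 1 FPKM and Fosl1 at 2.19 with 0.1 FPKM and at 0.49 with 1 FPKM, since adding a constant lowers the ratio of low values. Filters and the highest row cannot change the ratio of a member, since each symbol stands on 1 row. A scaling shifts all genes alike. The count of 81 therefore says little beyond the pseudocounts. The count of 5 members higher by more than 2-fold became 3 with 10 FPKM or more required in at least one library, which leaves fewer genes, and 0 at 4-fold, where Junb at 3.98-fold fell just short. Without the filter it was 7, with a pseudocount of 1 FPKM it was 4 (Fos dropped out), at 1.5-fold it was 6, and under every scaling it was 5. The median log2 ratio of the members ran from 1.02 to 1.40. Each scaling moved all log2 ratios by less than 0.1. Over the whole table the 1423 genes higher by more than 2-fold became 821 with 10 FPKM, 2504 without the filter, 2488 at 1.5-fold and 453 at 4-fold. For the lists, 295 of 319 recomputed medians and counts stayed within 1.5-fold and 24 did not. Of the other immediate early genes 6 were higher at 4-fold in place of 17, and of the AP-1 partners 8 at 1.5-fold in place of 4. The median log2 ratio turned sign in 3 lists, from -0.35 to 0.57 in the heat shock genes and from -0.12 to 0.15 in the Myc targets with 10 FPKM, and from 0.15 to -0.04 in the MAP kinase list without the filter, where other genes enter or leave the list. No paired analysis was possible because each genotype has 1 library. With no counts and no replicates, neither counting error nor variation between hearts can be given for any value.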

Other observations

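The lists of textbook target genes of AP-1, Myc and Egr1 were not alike. Of 20 AP-1 target genes past the filter 13 were higher and 1 was lower by more than 2-fold, against 13.6% and 18.0% of all genes. Their median log2 ratio was 1.59. The count of 13 became 10 with 1 FPKM or more required in both libraries, and Lox, named below, was among those left out. Nppa, the atrial natriuretic peptide gene, had 468 FPKM in control heart against 11114 FPKM in csMed1-/- heart, Acta1, the skeletal actin gene, 207 and 2033 FPKM, and Lox, a collagen crosslinking enzyme, 0.195 and 6.96 FPKM. At the other end stood Ccnd1 (9.83 and 3.66 FPKM), a cyclin, Plau (1.97 and 1.26 FPKM) and the metallothionein Mt1 (1614 and 1474 FPKM). The study itself names some of these genes, Nppa among them, from the same hearts, so the direction of the list is no independent evidence.

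Of 27 Myc target genes past the filter 3 were higher and 3 lower by more than 2-fold, against 13.6% and 18.0% of all genes. Neither count stood above the background. Their median log2 ratio of -0.12 became 0.15 when 10 FPKM was required in at least 1 library. Myc itself was 2.84-fold higher. Higher were the amino acid transporter Slc7a5 (3.92 and 88.3 FPKM), the ribosome assembly factor Bop1 (23.1 and 87.5 FPKM) and Nme1 (21.4 and 51.1 FPKM). Lower were the mitochondrial chaperonin Hspd1 (27.0 and 7.79 FPKM), the translation factor Eif4e (18.7 and 6.66 FPKM) and Cad (5.44 and 2.29 FPKM), an enzyme of pyrimidine synthesis. Of 8 Egr1 target genes 2 were higher, Thbs1 (0.543 and 3.79 FPKM) and Icam1 (6.79 and 16.7 FPKM), and 0 were lower by more than 2-fold (median log2 ratio 0.68). With 1 FPKM required in both libraries 1 Egr1 target was higher and the median was 0.17. Thbs1 is also listed as up-regulated by the study, from the same hearts. Tgfb1 had 23.2 and 43.9 FPKM, and Pdgfa (18.8 and 11.9 FPKM), Pdgfb (37.7 and 28.8 FPKM) and F3 (5.90 and 4.81 FPKM) had the lowest ratios.

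Of 11 heat shock genes 4 were higher and 2 lower by more than 2-fold, against 13.6% and 18.0% of all genes. Their median log2 ratio was -0.35. Hspa1a (2.04 and 48.4 FPKM), Hspa1b (1.65 and 37.4 FPKM) and Hsp90aa1 (3.95 and 23.0 FPKM), which like the immediate early genes answer to acute stress, had the highest ratios. The mitochondrial chaperonin genes Hspd1 and Hspe1 (153.8 and 59.1 FPKM) and the constitutive Hspa8 (928 and 495 FPKM) had the lowest. Hspa1a and Hspa1b are near-identical copies, so their separate values are uncertain. Both are listed as up-regulated by the study from the same hearts, so their direction is no independent evidence. The part of a general stress response in the ratios of the members was not tested.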
